A study of Mus musculus with 18 samples.

Results

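Endothelial cells are recognised by a small set of genes that build their junctions, receive their growth factors and make nitric oxide. Described here are 10 of these endothelial identity genes, Pecam1, Cdh5, Mcam, Cd34, Kdr, Flt1, Tek, Eng, Ets1 and Nos3, which were taken by name from a count table of 21647 genes. All 10 were matched to 1 Ensembl identifier each in that table. The cells were cultured embryonic aortic endothelial cells of Tg737orpk/orpk mice, called orpk cells below, and of wild-type (WT) mice. The orpk allele is an insertion mutation in Ift88, a gene of the transport machinery that builds the primary cilium. Cells of each genotype grew on gelatin to confluence, were starved of serum for 24 h, and then were kept static or exposed for 48 h to laminar shear stress of 2 or 30 dyn/cm2. The groups were therefore orpk static, orpk 2 dyn/cm2, orpk 30 dyn/cm2, WT static, WT 2 dyn/cm2 and WT 30 dyn/cm2, with 3 libraries in each and 18 in all. Nothing in the labels says that the 3 libraries of a group came from separate cultures or animals, so every p-value below rests on library-to-library spread that may be technical. Nor do the labels say how many animals or isolates stand behind each genotype, so genotype and isolate cannot be told apart.

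As background, VE-cadherin (Cdh5) and PECAM-1 (Pecam1) sit at the contacts between endothelial cells, and together with VEGFR2 (Kdr) they form a complex that is known to sense shear. VEGFR2 is the main signalling receptor for VEGF-A, while VEGFR1 (Flt1) binds the same ligand tightly and is known mostly as a decoy. TIE2 (Tek) answers to angiopoietins, endoglin (Eng) assists the receptors for BMP9 and TGF-beta, and endothelial nitric oxide synthase (Nos3) is a classical gene induced by laminar flow. ETS transcription factors, which bind the core GGAA, act at most endothelial promoters.

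The libraries held between 13626480 and 17387553 reads assigned to genes, and levels are given as CPM, a gene's counts relative to the scaled total of its library (TMM scaling). Ift88 averaged 7.81 CPM in orpk static cells and 15.6 CPM in WT static cells, a log2 fold change of -0.99. Its log2 fold change was -0.91 at 2 dyn/cm2 and -0.95 at 30 dyn/cm2. Of all genes, 13058 had enough reads to be tested. A pair of libraries stood apart from the other replicates of their group, replicate 2 of orpk 2 dyn/cm2 and replicate 1 of WT 2 dyn/cm2. The chi-square of gene counts over its degrees of freedom was 3.39 and 3.79 between that orpk library and the other replicates, which differed by 1.58. It was 6.35 and 7.74 for that WT library, where the other replicates differed by 1.44. Member results that changed their call or direction without these libraries are given with and without them below. Under library totals in place of TMM, the median log2 fold change of all genes between genotypes moved to -0.21 in static culture, -0.20 at 2 dyn/cm2 and -0.28 at 30 dyn/cm2, so genotype differences of that size or less depend on the scaling.

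Several genes that define endothelium were low or absent in cells labelled endothelial. In orpk cells Cdh5 was present at 0.40 to 1.5 CPM, Kdr at 0.47 to 3.6 CPM and Tek at 0.15 to 2.2 CPM. Over the 9 WT libraries together, Cdh5 had no read, Kdr had 1 and Tek had 5. Pecam1 lay below 2 CPM in every library of both genotypes. In orpk static cells Cd34 carried most of the signal (mean 685 CPM), ahead of Ets1 (104), Flt1 (93.6) and Mcam (14.3). In WT static cells Ets1 (150 CPM), Mcam (149) and Flt1 (40.4) carried it, and Cd34 averaged 0.286 CPM. The summed level of the 10 genes ran from 896.3 to 920.8 CPM in orpk static libraries and from 331.9 to 355.6 CPM in WT static libraries. The higher sum in orpk libraries rested on Cd34. The plot of the 10 genes by library shows these patterns gene by gene. In bulk RNA, fewer cells that express a gene and less of its RNA per cell cannot be told apart.

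**Figure D1:**
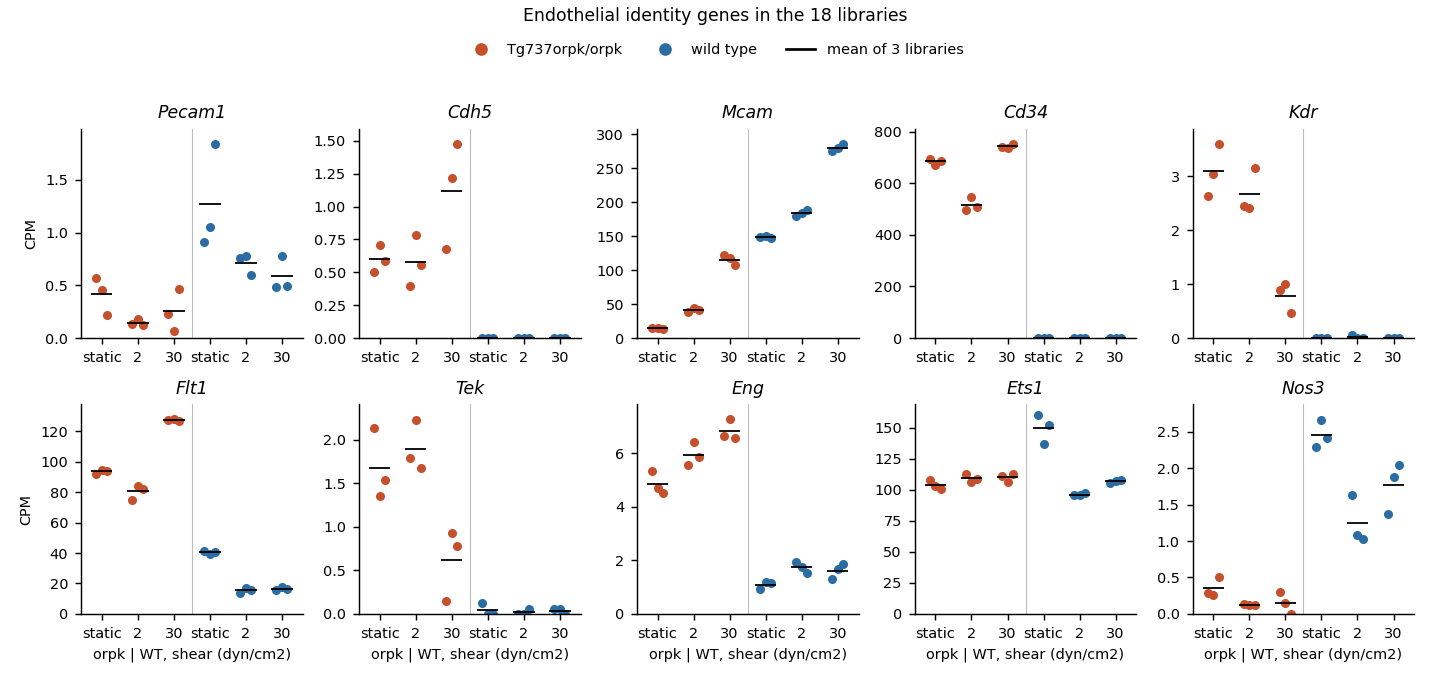
CPM (vertical axis, linear, from 0) of each of the 10 endothelial identity genes in the 18 libraries, by genotype and shear in dyn/cm2 (horizontal axis). Points are libraries and bars are means of 3. Cdh5, Kdr, Tek and Cd34 sit at or near 0 in all WT libraries, Mcam is higher with shear in both genotypes, and Flt1 is higher in orpk libraries throughout.

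In static culture all 10 genes differed between orpk and WT cells, 6 higher in orpk cells (Cdh5, Cd34, Kdr, Flt1, Tek and Eng) and 4 lower (Pecam1, Mcam, Ets1 and Nos3), by edgeR's quasi-likelihood test at an adjusted p under 0.05. This count is close to the background, because 87.8% of all tested genes differed in that comparison, 44.4% higher and 43.4% lower. The orpk and WT libraries did not overlap for any of the 10, and they did not for 88.1% of all tested genes. Cdh5, Cd34, Kdr and Tek passed the filter on low counts only through the orpk libraries, and Pecam1 and Nos3 only through the WT libraries, so that the filter favoured the direction of these 6 and their count supports nothing. The 4 genes that passed in the libraries of each genotype alone were Flt1 and Eng, which were higher, and Mcam and Ets1, which were lower. Of all tested genes, 1227 passed only through the orpk libraries and 748 only through the WT libraries. At 2 dyn/cm2, 7 of the 10 were higher and 3 lower, against a background of 87.5% called (44.6% higher and 42.9% lower), and at 30 dyn/cm2, 6 were higher, 3 were lower and Ets1 did not pass, against 86.9% (44.9% higher and 42% lower). When library totals set the scale, 40.6% of the genes called at 2 dyn/cm2 were higher in orpk cells, beside 51% with TMM, and 38.5% at 30 dyn/cm2, beside 51.6%.

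Per length of exon the genes ranked differently in the genotypes. In orpk static cells Cd34 led with 94.0 CPM per kb, followed by Ets1 (12.3), Flt1 (6.93), Mcam (4.26) and Eng (1.20), and the other 5 lay below 0.4 CPM per kb. In WT static cells Mcam led with 44.5 CPM per kb, followed by Ets1 (17.7) and Flt1 (2.99), with Nos3 (0.594), Eng (0.268) and Pecam1 (0.204) next and Cd34 at 0.0392. Within the low genes of orpk static cells, Tek and Kdr were close (0.356 and 0.342 CPM per kb), as were Nos3 and Pecam1 (0.0852 and 0.0665), and their order turned round with the length of the longest transcript in place of all exons. Mcam had moved to the second place in orpk cells at 30 dyn/cm2 with 34.5 CPM per kb, behind Cd34 with 102.

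**Figure D2:**
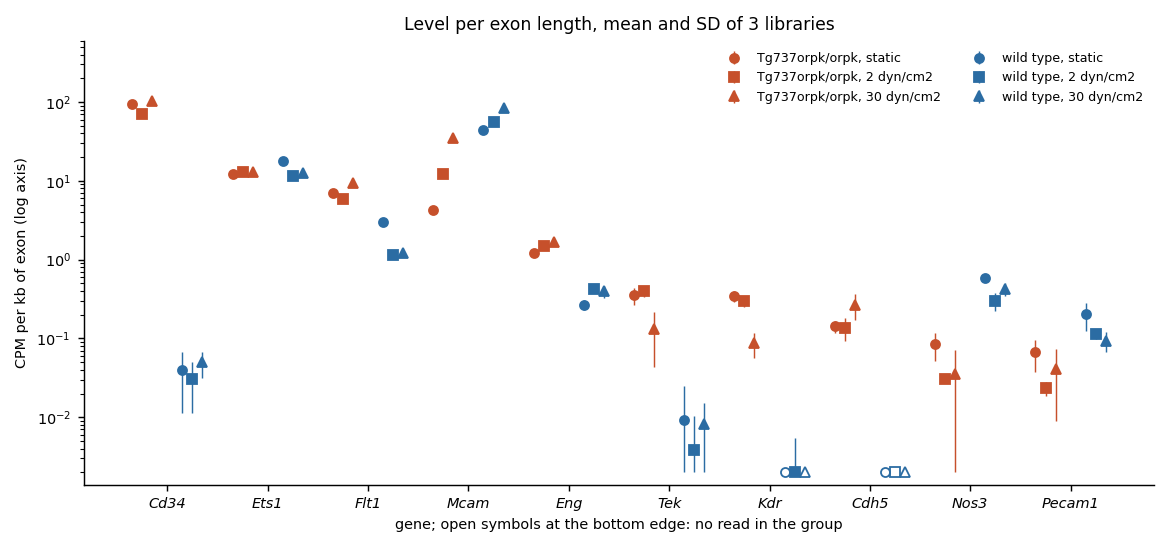
Level of each gene in CPM per kb of exon (vertical axis, log scale) by group, as the mean and SD of 3 libraries, with genes ordered by their level in orpk static cells (horizontal axis). Open symbols on the bottom edge mark groups with no read, and error bars that would pass below that edge end there. Cd34 leads in orpk cells and Mcam in WT cells.

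Markers of other cell types differed between the genotypes together with these genes. Of all tested genes, 44.4% were higher and 43.4% lower in orpk static cells, and 44.6% and 44.9% were higher at 2 and 30 dyn/cm2. Of 11 tested fibroblast markers, 3 had passed the filter only through the orpk libraries. All 11 were higher in orpk cells under each condition, among them Pdgfra, Fbln2, Col3a1 and Col1a2 in static culture. Their summed level ran from 45460 to 46410 CPM in orpk static libraries and from 990.7 to 1058 CPM in WT static libraries, where Col1a1, a collagen chain, alone made up 991.7 CPM and was named after its value was seen. Of 10 markers of smooth muscle and pericytes 6 were tested, and all 6 were also higher in orpk static cells. The summed level was 1327 to 1445 CPM in orpk static libraries against 54.6 to 57.6 CPM in WT static libraries. The 4 below the filter, Myh11, Rgs5, Abcc9 and Kcnj8, had 43, 20, 3 and 0 reads over all orpk libraries. In the other direction, 9 of 10 tested epithelial markers were lower in orpk static cells and 1 was higher, although 6 of them passed the filter only through the WT libraries. Krt18 and Krt8, keratins of simple epithelium, averaged 0.162 and 0.332 CPM in orpk static cells, and 151 and 149 CPM in WT static cells. The summed epithelial level differed less, at 294.9 to 299.6 CPM in orpk static libraries and 559 to 577.1 CPM in WT static libraries. Msln and Krt19, named after their values were seen, were abundant in both genotypes. Over all shear conditions Msln had 20497 orpk and 8070 WT reads, and Krt19 had 7436 and 9416. Of 12 markers of leukocytes and platelets 6 were tested, and 2 were higher and 1 lower in orpk static cells, with a summed level of 35.9 to 39.0 CPM in orpk static libraries and 64.7 to 70.2 CPM in WT static libraries. Csf1r, the receptor of macrophage colony-stimulating factor, averaged 5.09 ± 1.09 CPM in orpk static cells and 44.3 ± 2.56 CPM in WT static cells (SD, n = 3), while Cd68 averaged 8.73 ± 0.223 CPM in orpk and 2.65 ± 0.733 CPM in WT, and Lyz2, lysozyme, had 140 reads in orpk and 3 in WT. Ptprc (CD45), which marks all leukocytes, had 27 reads over the 18 libraries and was not tested, and Adgre1 and Cd3e had none. The part of these other cell types in the results on the endothelial genes was not tested.

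Pecam1 (ENSMUSG00000020717, chr11:106654217-106750628, minus strand, GRCm38) encodes the adhesion molecule that is the usual endothelial marker in sections. It had 0.57, 0.45 and 0.22 CPM in orpk static libraries, 0.13, 0.18 and 0.12 CPM at 2 dyn/cm2 and 0.22, 0.071 and 0.47 CPM at 30 dyn/cm2. WT cells had 0.91, 1.1 and 1.8 CPM in static culture, 0.76, 0.78 and 0.60 CPM at 2 dyn/cm2 and 0.48, 0.78 and 0.50 CPM at 30 dyn/cm2. The orpk libraries lay below the WT libraries under each condition, by 3.07-fold in static culture (log2 fold change -1.62 ± 0.38, SE, adjusted p = 0.000143). The log2 fold change was -2.22 at 2 dyn/cm2 (adjusted p = 0.000175) and -1.21 at 30 dyn/cm2 (adjusted p = 0.0267), and the value at 30 dyn/cm2 did not pass with DESeq2 (adjusted p = 0.0519) or without replicate 1 or 2 of the orpk libraries (log2 fold change -1.15 and -0.76) or replicate 2 of the WT libraries (-0.95). Shear lowered Pecam1 in WT cells, by 1.82-fold at 2 dyn/cm2 (adjusted p = 0.0159) and 2.19-fold at 30 dyn/cm2 (adjusted p = 0.00245), each against static. Both calls rested on replicate 3 of WT static, the highest of all libraries. Without it the log2 fold changes were -0.46 and -0.73 and neither passed, and the first also failed without replicate 3 of WT 2 dyn/cm2 (-0.74) and with DESeq2. In orpk cells 18, 7 and 10 reads over the 3 libraries stood behind the static, 2 and 30 dyn/cm2 values. The fall at 2 dyn/cm2 (2.76-fold, adjusted p = 0.0387) was lost with DESeq2 (adjusted p = 0.0541), with library totals (adjusted p = 0.0529) and when any of 5 of the 6 libraries, all but replicate 3 of orpk static, was left out. Without the orpk library that stood apart the log2 fold change was -1.65 (adjusted p = 0.0529).

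Cdh5 (ENSMUSG00000031871, chr8:104101625-104144511, plus strand) encodes VE-cadherin, the cadherin of the endothelial adherens junction. It had 0.50, 0.71 and 0.59 CPM in orpk static libraries, 0.40, 0.78 and 0.56 CPM at 2 dyn/cm2 and 0.67, 1.2 and 1.5 CPM at 30 dyn/cm2, and no read in WT cells. Set against a floor of 3 reads over the WT group, orpk cells were at least 9.44-fold higher in static culture, at least 10.4-fold higher at 2 dyn/cm2 and at least 19.7-fold higher at 30 dyn/cm2. The orpk level rested on 26, 28 and 45 reads in static culture, at 2 and at 30 dyn/cm2. It rose 1.85-fold at 30 dyn/cm2 against static (log2 fold change 0.88 ± 0.36, SE, adjusted p = 0.03), with 1 library of the 30 dyn/cm2 group inside the static range. That call was lost with DESeq2 (adjusted p = 0.132) and without replicate 1 or 3 of orpk static or replicate 2 or 3 of orpk 30 dyn/cm2, with log2 fold changes of 0.65 to 0.87 and adjusted p-values up to 0.167. The step of 30 against 2 dyn/cm2 (1.90-fold, adjusted p = 0.0229) was lost with DESeq2 (adjusted p = 0.105) and without replicate 1 or 3 of orpk 2 dyn/cm2 or replicate 2 or 3 of orpk 30 dyn/cm2 (adjusted p up to 0.146).

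Mcam (ENSMUSG00000032135, chr9:44134469-44142727, plus strand) encodes CD146, an adhesion molecule of endothelium that pericytes and smooth muscle also carry. It had 14.8, 15.2 and 12.9 CPM in orpk static libraries, 38.9, 44.6 and 40.8 CPM at 2 dyn/cm2 and 122, 117 and 107 CPM at 30 dyn/cm2. WT cells had 149, 151 and 147 CPM in static culture, 180, 184 and 189 CPM at 2 dyn/cm2 and 275, 280 and 286 CPM at 30 dyn/cm2. No group overlapped with another, and within each genotype the order was static, 2 and 30 dyn/cm2. The orpk level was 10.4-fold lower than WT in static culture, 4.45-fold lower at 2 dyn/cm2 and 2.43-fold lower at 30 dyn/cm2, each with an adjusted p of 2.56e-28 or less. Mcam rose at 30 dyn/cm2 against static by 8.08-fold in orpk cells (log2 fold change 3.01 ± 0.061, SE) and 1.88-fold in WT cells (0.91 ± 0.04). The responses of the genotypes differed by a log2 value of 2.10 ± 0.076 (adjusted p = 2.35e-25). The rise at 2 dyn/cm2 against static was 2.90-fold in orpk cells and 1.24-fold in WT cells, a difference of 1.23 ± 0.081 (adjusted p = 2.22e-16). The summed smooth muscle and pericyte markers moved in the same order in orpk cells, at 1327 to 1445, 1773 to 2029 and 3705 to 3820 CPM in static culture, at 2 and at 30 dyn/cm2, and in WT cells at 54.6 to 57.6, 68.4 to 76.2 and 119.7 to 134.1 CPM. The WT sum was mostly Tagln (named after its values were seen), with 11701 WT reads, and no other marker had more than 572. At 30 dyn/cm2 against static, 2 of 6 tested markers rose in WT cells, 1 fell and 3 did not pass. In orpk cells 4 rose and 2 fell. The part of these markers in the rise of Mcam was not tested.

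RNA of the catenins that bind VE-cadherin (Ctnnb1, Ctnna1, Ctnnd1 and Jup, named after their values were seen) averaged 178 CPM or more in static cells of both genotypes, while several other junction genes and cadherins were near 0 in one genotype. All 11 genes on the list of junction partners passed the filter, Jam2 only through the orpk libraries and Ptprb only through the WT libraries. In static culture 5 were higher and 6 lower in orpk cells, where 87.8% of all genes were called. Of the 9 that passed in each genotype alone, 4 were higher and 5 lower. The summed level of the list was 3030 to 3048 CPM in orpk static libraries and 2811 to 2921 CPM in WT static libraries. Jam2 and Jam3, which encode junctional adhesion molecules, were higher in orpk static cells (11.6 ± 0.66 CPM against 0.259 ± 0.081 CPM, and 43.8 ± 1.6 CPM against 5.35 ± 0.32 CPM, SD, n = 3). Ptprb, the gene of the phosphatase VE-PTP that acts on VE-cadherin and TIE2, had no read in orpk static cells and 7.99 ± 1.9 CPM in WT static cells, and was at least 116-fold lower in orpk cells. F11r, which encodes JAM-A, was 2.55-fold lower. Of the 11 other cadherin genes 8 were tested, and in static culture 5 were higher and 3 lower in orpk cells, where 44.4% and 43.4% of all genes were. Cdh10 and Cdh13 passed the filter only through the orpk libraries, and Cdh6 and Cdh16 only through the WT libraries. Of the other 4 tested cadherins, 3 were higher and 1 lower. Cdh10 had 60.7 ± 2.2 CPM in orpk static cells and no read in WT static cells, and Cdh13, T-cadherin, 33.9 ± 1.4 CPM in orpk and 2 reads in WT. Cdh6 and Cdh16, cadherins known from kidney epithelium, averaged 0.139 and 0.488 CPM in orpk static cells, and 254 and 666 CPM in WT static cells. Cdh11, a cadherin of mesenchymal cells, was among the largest changes at 30 dyn/cm2, where it averaged 1013 ± 12 CPM in orpk cells and 1.07 ± 0.51 CPM in WT cells. Cdh1, E-cadherin, stayed below the filter in both genotypes, and Cdh2, N-cadherin, averaged 188 CPM in orpk static cells and 157 CPM in WT static cells, named after its values were seen. At 2 dyn/cm2 against static, Cdh2 fell 1.28-fold in WT cells.

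**Figure D3:**
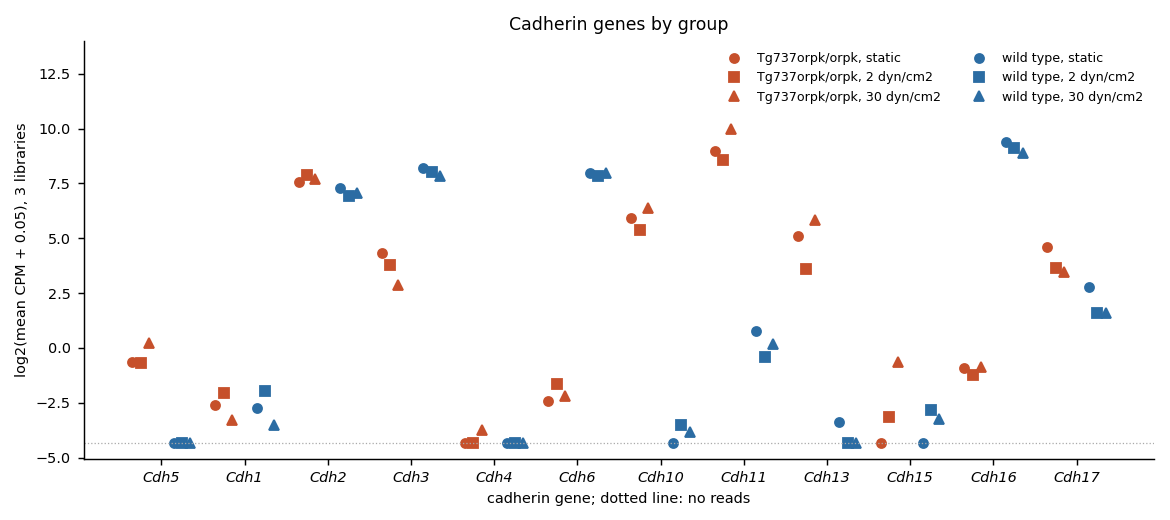
Mean level of Cdh5 and 11 other cadherin genes (horizontal axis) in the 6 groups, as log2(mean CPM + 0.05) (vertical axis, means of 3 libraries). The dotted line is the position of a group with no read. Cdh5 lies on that line in all 3 WT groups, where Cdh3, Cdh6 and Cdh16 are the highest cadherins, while Cdh11 is the highest in orpk cells.

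Cd34 (ENSMUSG00000016494, chr1:194938819-194961279, plus strand) encodes a sialomucin on the surface of endothelial cells, blood progenitors and many fibroblasts, and it showed the widest difference between the genotypes of the 10 genes. It had 695, 672 and 688 CPM in orpk static libraries, 498, 548 and 508 CPM at 2 dyn/cm2 and 741, 739 and 751 CPM at 30 dyn/cm2. The WT values were 0.13, 0.21 and 0.52 CPM in static culture, 0.11, 0.18 and 0.38 CPM at 2 dyn/cm2 and 0.48, 0.22 and 0.39 CPM at 30 dyn/cm2. The log2 fold change between genotypes was 11.13 in static culture, 11.12 at 2 dyn/cm2 and 10.98 at 30 dyn/cm2. The WT side rested on 14, 12 and 19 reads in the same order. With a library left out the values ran from 10.79 to 11.92, 10.74 to 11.75 and 10.73 to 11.22. The SE of the fit, 0.091 to 0.098, was narrower than this spread and understates the uncertainty. Within orpk cells Cd34 fell 1.32-fold at 2 dyn/cm2 against static (adjusted p = 3.9e-12), and it was 1.44-fold higher at 30 than at 2 dyn/cm2 (adjusted p = 1.8e-15). The rise of 1.09-fold at 30 dyn/cm2 against static (adjusted p = 0.00608) did not pass with size factors of the RLE kind (adjusted p = 0.07) or with DESeq2 (0.0691). In WT cells no difference with shear was detectable at this depth. The fibroblast markers were high in the same libraries as Cd34, with summed levels in orpk libraries of 45460 to 46410 CPM in static culture, 29260 to 34200 CPM at 2 dyn/cm2 and 37450 to 39620 CPM at 30 dyn/cm2. Their part in the Cd34 level was not tested. The sequence upstream of the Cd34 start is shown because the GGAA core of ETS factors recurs in it, with GGAA or its reverse complement TTCC in capitals (RefSeq, GRCm38.p6, chr1:194938571-194938818, plus strand).
Cd34: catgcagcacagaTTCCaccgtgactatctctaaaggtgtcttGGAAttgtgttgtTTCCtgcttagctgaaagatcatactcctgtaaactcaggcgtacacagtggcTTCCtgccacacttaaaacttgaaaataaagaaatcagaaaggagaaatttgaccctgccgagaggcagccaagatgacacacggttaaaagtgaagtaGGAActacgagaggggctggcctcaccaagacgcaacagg

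The VEGF and angiopoietin receptors parted from each other in orpk cells. Kdr and Tek fell at 30 dyn/cm2, while Flt1 rose. Kdr (ENSMUSG00000062960, chr5:75932827-75978458, minus strand) had 2.6, 3.0 and 3.6 CPM in orpk static libraries, 2.4, 2.4 and 3.2 CPM at 2 dyn/cm2 and 0.90, 1.0 and 0.47 CPM at 30 dyn/cm2. In WT cells its single read lay in replicate 1 of the 2 dyn/cm2 group, the library that stood apart. Orpk cells were at least 48.3-fold higher than WT in static culture and at least 14-fold higher at 30 dyn/cm2. At 2 dyn/cm2 the ratio was 143 (95% counting interval 25.2 to 5690). In orpk cells Kdr was 3.85-fold lower at 30 dyn/cm2 than in static culture (log2 fold change -1.94 ± 0.27, SE, adjusted p = 4.46e-08) and 3.34-fold lower than at 2 dyn/cm2 (adjusted p = 7.02e-07). The 2 dyn/cm2 and static libraries overlapped (log2 fold change -0.21, with a 95% interval of -0.60 to 0.19).

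Tek (ENSMUSG00000006386, chr4:94739289-94874976, plus strand) was also lower at 30 dyn/cm2. It had 2.1, 1.4 and 1.5 CPM in orpk static libraries, 1.8, 2.2 and 1.7 CPM at 2 dyn/cm2 and 0.15, 0.93 and 0.78 CPM at 30 dyn/cm2. WT libraries held 0 to 0.13 CPM. Over WT, orpk cells had a ratio of 39.2 in static culture (95% counting interval 10.5 to 330), 102 at 2 dyn/cm2 (17.8 to 4060) and 16.4 at 30 dyn/cm2 (4.09 to 143). Its level at 30 dyn/cm2 was 2.67-fold below static (log2 fold change -1.41 ± 0.36, SE, adjusted p = 0.000593) and 3.03-fold below 2 dyn/cm2 (adjusted p = 8.3e-05), with no overlap of libraries. Shear effects of Kdr and Tek in WT cells could not be read, as each WT group held at most 2 reads of either gene.

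Flt1 (ENSMUSG00000029648, chr5:147561604-147726011, minus strand) was the only VEGF receptor of the 10 genes with a measurable level in WT cells. It had 92.1, 94.8 and 93.9 CPM in orpk static libraries, 74.8, 84.3 and 82.3 CPM at 2 dyn/cm2 and 127, 128 and 127 CPM at 30 dyn/cm2. In WT cells it had 41.2, 39.2 and 40.7 CPM in static culture, 13.8, 16.8 and 15.8 CPM at 2 dyn/cm2 and 15.8, 17.5 and 16.0 CPM at 30 dyn/cm2. All orpk libraries lay above all WT libraries, by 2.32-fold in static culture, 5.22-fold at 2 dyn/cm2 and 7.73-fold at 30 dyn/cm2 (adjusted p of 2e-24 or less). Flow moved the genotypes apart. Against static, Flt1 at 30 dyn/cm2 rose 1.36-fold in orpk cells (adjusted p = 1.69e-11) and fell 2.46-fold in WT cells (adjusted p = 6.59e-21), a difference between the responses of 1.74 ± 0.079 on the log2 scale (adjusted p = 6.39e-22). It fell in both at 2 dyn/cm2, 1.16-fold in orpk cells (adjusted p = 9.51e-05) and 2.62-fold in WT cells (adjusted p = 1.66e-21), a difference of 1.17 ± 0.081 (adjusted p = 8.18e-16). In WT cells 30 and 2 dyn/cm2 overlapped (log2 fold change 0.09, 95% interval -0.06 to 0.24). Counts per gene do not separate the membrane receptor from the soluble, truncated form that the same gene is known to make.

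The promoters of these receptors are shown side by side because Kdr and Tek both fell at 30 dyn/cm2 while Flt1 rose. They are given 5′ to 3′ on the strand of the gene, with GGAA and TTCC in capitals (RefSeq, GRCm38.p6: Kdr chr5:75978459-75978705 and Flt1 chr5:147726012-147726261, minus strand, Tek chr4:94739039-94739288, plus strand).
Kdr: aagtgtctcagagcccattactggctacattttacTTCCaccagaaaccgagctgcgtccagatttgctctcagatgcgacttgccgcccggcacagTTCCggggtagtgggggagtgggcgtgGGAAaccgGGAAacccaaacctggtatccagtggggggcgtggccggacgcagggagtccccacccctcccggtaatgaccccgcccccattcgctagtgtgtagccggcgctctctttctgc
Tek: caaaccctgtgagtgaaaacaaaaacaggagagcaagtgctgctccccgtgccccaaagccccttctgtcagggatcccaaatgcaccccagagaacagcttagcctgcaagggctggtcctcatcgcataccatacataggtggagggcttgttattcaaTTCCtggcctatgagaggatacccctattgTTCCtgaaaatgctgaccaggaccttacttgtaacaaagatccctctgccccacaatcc
Flt1: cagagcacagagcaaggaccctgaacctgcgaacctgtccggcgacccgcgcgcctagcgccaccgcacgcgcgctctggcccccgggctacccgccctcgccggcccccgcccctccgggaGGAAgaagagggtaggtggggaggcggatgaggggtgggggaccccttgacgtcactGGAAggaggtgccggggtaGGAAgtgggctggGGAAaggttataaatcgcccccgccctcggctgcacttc
Of the 10 genes, 6 had an entry in the promoter table. In the 250 bases before each RefSeq start, GGAA on either strand was found 5 times for Cd34, 4 times each for Flt1 and Kdr, 3 times for Eng, 2 times for Tek and 1 time for Mcam. For Mcam the GENCODE gene begins inside that window, and the 61 bases that lie before it held no match. The same core was present in 93.4% of 32851 mouse promoters, with 2.91 matches on average, so its presence does not set these genes apart. CACCC, the core bound by Krüppel-like factors, was found in 4 of the 6 (52.0% of all promoters), GGGCGG, the core bound by Sp1, in 3 of the 6 (32.7%), and GATAA (22.6%) and GAGACC (13.7%) in none. These motifs were searched on both strands, and a match is a description of letters only.

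Ligands and co-receptors of these receptors differed as well. Of 12 tested genes on this list, 9 were higher and 2 lower in orpk static cells, where 44.4% and 43.4% of all genes were. Vegfc, Angpt1 and Angptl1 passed the filter only through the orpk libraries and 1 gene only through the WT libraries, and of the other 8 genes 6 were higher and 1 lower. Vegfc, a ligand of VEGFR3, averaged 45.6 ± 2.9 CPM in orpk static cells (SD, n = 3), where WT static cells had 1 read, a ratio of 2140 (95% counting interval 383 to 84500). Angpt1, the activating ligand of TIE2, averaged 86.0 ± 3.7 CPM in orpk static cells and 0.0834 ± 0.027 CPM in WT static cells, and Angptl1 was also higher. Under shear more of the list fell than rose, 10 of 12 at 2 dyn/cm2 in orpk cells with 1 higher (31.1% of all genes fell), and 6 of 12 in WT cells with 2 higher (30.3% of all genes fell). Vegfa, the ligand shared by Kdr and Flt1, fell 3.78-fold in orpk cells and 7.45-fold in WT cells at 2 dyn/cm2 against static. Angpt2, which opposes Angpt1 in many settings and is stored in endothelial cells, fell 2.69-fold in orpk cells and rose 2.56-fold in WT cells at 2 dyn/cm2, although its WT level stayed at 1.04 ± 0.22 CPM or below. Nrp2, a co-receptor of VEGF receptors, fell 3.25-fold in WT cells at 2 dyn/cm2.

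Eng (ENSMUSG00000026814, chr2:32646595-32682669, plus strand) was higher in orpk cells at a modest level. It had 5.3, 4.7 and 4.5 CPM in orpk static libraries, 5.6, 6.4 and 5.9 CPM at 2 dyn/cm2 and 6.7, 7.3 and 6.6 CPM at 30 dyn/cm2. In WT cells it had 0.91, 1.2 and 1.1 CPM in static culture, 2.0, 1.7 and 1.5 CPM at 2 dyn/cm2 and 1.3, 1.7 and 1.9 CPM at 30 dyn/cm2. The genotypes did not overlap, and orpk cells were higher by 4.46-fold in static culture, 3.42-fold at 2 dyn/cm2 and 4.2-fold at 30 dyn/cm2 (adjusted p of 1.13e-13 or less). Eng at 30 dyn/cm2 rose 1.41-fold over static in orpk cells (adjusted p = 0.000967) and 1.5-fold in WT cells (adjusted p = 0.031). The WT call did not pass with DESeq2 (adjusted p = 0.0644) or without replicate 1 of WT static, or replicate 2 or 3 of WT 30 dyn/cm2 (adjusted p up to 0.144). At 2 dyn/cm2 the rise was 1.23-fold in orpk cells (adjusted p = 0.0476) and 1.60-fold in WT cells (adjusted p = 0.0106). Without the libraries that stood apart these became a log2 fold change of 0.23 in orpk cells (adjusted p = 0.177) and 0.58 in WT cells (adjusted p = 0.0595). Without replicate 1 of WT static the WT value was 0.57 (adjusted p = 0.0595), and the orpk value also failed to pass without replicate 2 or 3 of orpk static or replicate 3 of orpk 2 dyn/cm2. The orpk call at 2 dyn/cm2 was further lost with DESeq2 (adjusted p = 0.175), RLE size factors (0.0699), no filter (0.0691), a fit of these groups alone (0.0509) and the replicate block (0.0513). Eng shares 61 bases of exon with Fpgs on the other strand, which had 36.5 to 72.1 CPM in the group means, and whether the counting used strand is not given in the sources used here.

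Among 16 tested genes that act with endoglin, 6 were higher and 7 lower in orpk static cells, where 44.4% and 43.4% of all genes were. Under library totals the counts were 5 and 10. Tgfbr3, betaglycan, the relative of endoglin outside endothelium, averaged 341 ± 17 CPM in orpk static cells and 63.1 ± 2.3 CPM in WT static cells (SD, n = 3). Tgfbr1 was also higher in orpk static cells, while Id2, a target of BMP signalling, and Acvr2b were lower. The related genes Id1 and Id3, named after their values were seen, did not go one way. Over all shear conditions Id1 had 2607 orpk and 4433 WT reads, and Id3 had 7919 and 3554. The BMP9 and BMP10 genes Gdf2 and Bmp10 had no read in any library. At 30 dyn/cm2 against static, 6 of the 16 fell in orpk cells and 4 rose (33.3% of all genes fell), and 11 fell in WT cells and 3 rose (32.7% of all genes fell). Id2 fell 5.36-fold in orpk cells and 4.79-fold in WT cells, and Tgfbr3 fell 4.11-fold in orpk cells and 3.01-fold in WT cells. Smad7, which inhibits these receptors, rose 2.17-fold in orpk cells at 30 dyn/cm2.

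Ets1 (ENSMUSG00000032035, chr9:32636221-32757820, plus strand) encodes an ETS factor found in endothelium, fibroblasts and lymphoid cells, and it was the member with the most even level. It had 108, 104 and 101 CPM in orpk static libraries, 113, 106 and 109 CPM at 2 dyn/cm2 and 112, 107 and 113 CPM at 30 dyn/cm2. WT libraries held 161, 137 and 152 CPM in static culture, 95.5, 95.6 and 97.7 CPM at 2 dyn/cm2 and 105, 108 and 108 CPM at 30 dyn/cm2. WT static stood above all other groups, which lay within 95.5 and 113 CPM. Orpk cells were 1.44-fold lower than WT in static culture (adjusted p = 2.06e-14). At 2 dyn/cm2 they were 1.14-fold higher (log2 fold change 0.18, adjusted p = 0.000256), but with library totals the value was -0.04 and did not pass. At 30 dyn/cm2 the log2 fold change was 0.04 (95% interval -0.05 to 0.13), and with library totals -0.27 (adjusted p = 3.71e-07). Shear lowered Ets1 in WT cells, by 1.56-fold at 2 dyn/cm2 (adjusted p = 2.72e-16) and 1.4-fold at 30 dyn/cm2 (adjusted p = 4.54e-13) against static. In orpk cells it did not pass at either shear, with log2 fold changes of 0.07 at 2 dyn/cm2 and 0.08 at 30 dyn/cm2 and 95% intervals of -0.02 to 0.16 and -0.01 to 0.18. With library totals the first of these was 0.18 and passed. The responses differed between genotypes by 0.71 ± 0.063 at 2 dyn/cm2 (adjusted p = 1.12e-12) and 0.57 ± 0.063 at 30 dyn/cm2 (adjusted p = 3.04e-10).

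Other transcription factors of endothelium were split between the genotypes or absent from both. Of 18 such genes, 10 were tested, and 5 were higher and 5 lower in orpk static cells (4 and 5 with library totals). Among all tested genes 44.4% were higher and 43.4% lower there with TMM. Erg, Mef2c and Foxc2 passed the filter only through the orpk libraries, and Epas1 and Hhex only through the WT libraries. Erg, the most abundant ETS factor of mature endothelium, had 57, 35 and 29 reads in orpk static, 2 and 30 dyn/cm2 groups and none in WT cells, at least 20.7-fold higher in static culture. Mef2c was at least 61.7-fold and Foxc2 at least 13.8-fold higher in orpk static cells, where they averaged 3.92 and 0.880 CPM. Epas1, which encodes HIF-2alpha, averaged 0.089 CPM in orpk static cells and 8.85 CPM in WT static cells. Fli1 and Sox17 had no read in any library, and Sox7, Sox18, Tal1, Lmo2, Lyl1 and Etv2 stayed below the filter. Of the 16 tested ETS family genes, 7 were higher and 8 lower in orpk static cells, where 44.4% and 43.4% of all genes were. The summed level of the list was 987.7 to 1015 CPM in orpk static libraries and 981.7 to 1041 CPM in WT static libraries. Elf3 and Ehf, ETS factors of epithelia, were the most reduced in orpk static cells, while Erg and Etv1 were the most raised. Elf3 and Ehf passed the filter only through the WT libraries, so that the filter favoured their direction, as it did for Erg. Of the 13 ETS genes that passed in each genotype alone, 6 were higher, 6 lower and 1 did not pass.

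Nos3 (ENSMUSG00000028978, chr5:24364810-24384474, plus strand) was low in both genotypes and did not rise with shear in either. It had 0.29, 0.26 and 0.51 CPM in orpk static libraries, 0.13, 0.12 and 0.12 CPM at 2 dyn/cm2 and 0.30, 0.14 and 0 CPM at 30 dyn/cm2. In WT cells it had 2.3, 2.7 and 2.4 CPM in static culture, 1.6, 1.1 and 1.0 CPM at 2 dyn/cm2 and 1.4, 1.9 and 2.0 CPM at 30 dyn/cm2. All orpk libraries lay below all WT libraries, with 6.91-fold lower levels in static culture, 9.47-fold at 2 dyn/cm2 and 11.4-fold at 30 dyn/cm2 (adjusted p of 2.62e-08 or less). WT cells fell 1.95-fold at 2 dyn/cm2 against static (adjusted p = 0.000355). At 30 dyn/cm2 the fall of 1.38-fold did not pass (log2 fold change -0.46, 95% interval -0.89 to -0.03, adjusted p = 0.0546). It did pass with RLE size factors (adjusted p = 0.0461), separately in a fit of these groups alone (0.0364), and without replicate 3 of WT 30 dyn/cm2 (log2 fold change -0.57, adjusted p = 0.0398). In WT cells 30 dyn/cm2 was 1.42-fold above 2 dyn/cm2 (adjusted p = 0.107), and without the WT library that stood apart the log2 fold change was 0.75 (adjusted p = 0.0337). In orpk cells the static, 2 and 30 dyn/cm2 values rested on 15, 6 and 6 reads. The fall at 30 dyn/cm2 against static there (log2 fold change -1.18, adjusted p = 0.108) became -2.11 without replicate 1 of orpk 30 dyn/cm2 (adjusted p = 0.0298). Exons of Nos3 overlap on the other strand with the gene Atg9b over 294 bases and with the antisense gene Gm15587 over 1040 bases. Atg9b averaged 2.54 ± 0.38 CPM in orpk static cells and 37.6 ± 1.3 CPM in WT static cells, so it moved between the genotypes in the same direction as Nos3. Under shear it moved upward in WT cells, to 42.5 ± 1.2 CPM at 2 dyn/cm2 and 53.7 ± 1.3 CPM at 30 dyn/cm2. Its part in the Nos3 counts was not tested.

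Of 14 tested genes that act on nitric oxide synthesis, 4 were higher and 8 lower in orpk static cells, a called share close to the 87.8% of all genes. Nos2 and Arg2 passed the filter only through the WT libraries and 1 gene only through the orpk libraries. Nos2, the inducible synthase, averaged 0.0713 CPM in orpk static cells and 3.42 ± 0.21 CPM in WT static cells. Gch1, whose product makes the cofactor of the synthases, averaged 0.389 ± 0.12 CPM in orpk static cells and 6.24 ± 0.68 CPM in WT static cells, and Arg2 was also lower. Nos1, the neuronal synthase, averaged 2.26 ± 0.32 CPM in orpk static cells and 0.198 ± 0.14 CPM in WT static cells. Cav1, which encodes caveolin-1, a binder of the Nos3 protein, averaged 1371 ± 19 CPM in orpk cells and 88.6 ± 2.9 CPM in WT cells at 30 dyn/cm2. In WT cells Nos2 was at 0.0563 CPM at 2 dyn/cm2 and 0.037 CPM at 30 dyn/cm2, 3 and 2 reads, where the static group had 160.

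Read as a set, the 10 genes did not move one way under shear. In orpk cells at 2 dyn/cm2 against static, 2 rose (Mcam and Eng), 3 fell (Pecam1, Cd34 and Flt1) and 5 did not pass, where 62% of all tested genes were called, 30.9% higher and 31.1% lower. At 30 dyn/cm2 against static 5 rose (Cdh5, Mcam, Cd34, Flt1 and Eng), 2 fell (Kdr and Tek) and 3 did not pass, against 69.9% called, 36.5% higher and 33.3% lower. For 30 against 2 dyn/cm2, 4 rose and 2 fell, against 63.6% called (32.1% higher and 31.5% lower). In WT cells the 7 genes with enough reads gave 2 higher and 4 lower at 2 dyn/cm2 (62.9% of genes called, 32.6% higher and 30.3% lower), 2 higher and 3 lower at 30 dyn/cm2 (66.9%, 34.1% higher and 32.7% lower), and 2 higher for 30 against 2 dyn/cm2 (33.1%, 15.9% higher and 17.2% lower). With library totals, 64.3% of the calls in orpk cells at 2 dyn/cm2 against static were higher, beside 49.8% with TMM. The corresponding shares were 65.9% beside 51.8% in WT cells, and 34.4% beside 50.4% for 30 against 2 dyn/cm2 in orpk cells. The count of 5 at 2 dyn/cm2 in orpk cells was 3 with DESeq2, and 3 to 4 when a library was left out. It was 3 without replicate 2 of orpk static and without replicate 2 or 3 of orpk 2 dyn/cm2.

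**Figure D4:**
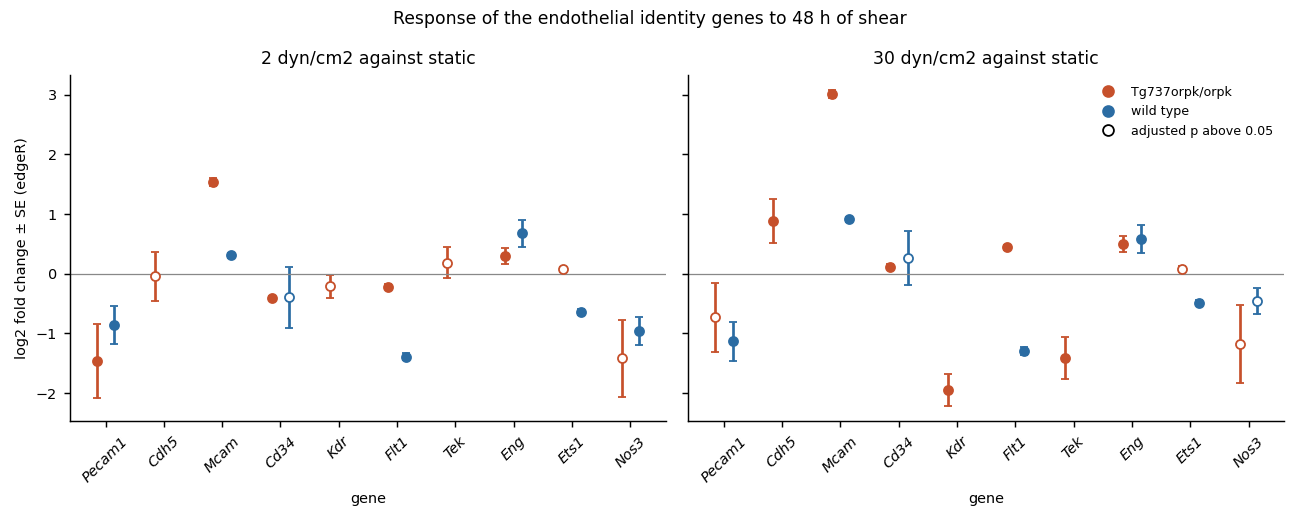
Log2 fold change with its SE (vertical axis) of each gene at 2 dyn/cm2 (left) and 30 dyn/cm2 (right) against static, in orpk and WT cells. Filled points passed an adjusted p of 0.05, and genes with too few WT reads have no WT point. Mcam rises in both genotypes and more in orpk cells, and Flt1 at 30 dyn/cm2 is above 0 in orpk cells and below 0 in WT cells.

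The response to shear was tested for a difference between genotypes in the 7 genes with enough reads. It differed for Mcam, Flt1 and Ets1 at 2 dyn/cm2 and at 30 dyn/cm2, each more positive in orpk cells, and for Mcam and Flt1 in the step of 30 against 2 dyn/cm2. The shares of all genes called were 52.6% (27.1% more positive and 25.4% more negative in orpk cells), 57.5% (30.6% and 26.9%) and 46.5% (25% and 21.5%) in these 3 tests, and the 3, 3 and 2 of 7 genes called lay near them. With library totals, 42.8% of the calls for 30 dyn/cm2 against static were positive, beside 53.2% with TMM, and 38.8% beside 53.7% for the step of 30 against 2 dyn/cm2. For Pecam1, Eng, Nos3 and Cd34 no difference between the responses passed. At 30 dyn/cm2 against static the 95% intervals of the difference were wide, -1.03 to 1.84 for Pecam1, -0.62 to 0.45 for Eng, -2.11 to 0.67 for Nos3 and -1.06 to 0.76 for Cd34, so that these responses were not shown to be alike. For Ets1 the step of 30 against 2 dyn/cm2 gave -0.14 and did not pass (adjusted p = 0.0624). It passed with library totals (-0.24, adjusted p = 0.00174), with RLE size factors (-0.16, 0.0338), in a fit of these groups alone (-0.14, 0.0359) and without the orpk library that stood apart (-0.16, 0.0422).

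Beyond the 10 genes, 35 further endothelial genes of the junction, surface and secretome gave a mixed picture. Of these, 22 passed the filter, and in static culture 15 were higher and 5 lower in orpk cells, where 44.4% and 43.4% of all genes were. That count partly follows from the filter, as 9 of the 22 passed it only through the orpk libraries, S1pr1, Clec14a, Calcrl and Vwf among them, and 2 only through the WT libraries, Ptprb among them. Of the 11 that passed in each genotype alone, 6 were higher, 3 were lower and 2 did not pass. The counts were 16 higher and 5 lower at 2 dyn/cm2, and 13 higher and 6 lower at 30 dyn/cm2. S1pr1, the receptor for sphingosine 1-phosphate, averaged 22.2 ± 0.95 CPM in orpk static cells (SD, n = 3), Clec14a 19.8 ± 1.1 CPM and Calcrl, part of the adrenomedullin receptor, 16.3 ± 0.53 CPM, and none of these had a read in WT static cells. They were at least 347-fold, 310-fold and 255-fold higher in orpk static cells. The summed level was less unequal, at 311 to 314 CPM in orpk static libraries and 237.6 to 246.2 CPM in WT static libraries. Podxl, a sialomucin related to Cd34 and named after its values were seen, made up 3.28 CPM of the orpk static level and 108 CPM of the WT static level. The 13 genes below the filter included the tight junction gene Cldn5, Tie1, Robo4, Icam2 and Emcn, and none of the 13 had more than 59 reads over all 18 libraries. Under shear more of the list fell than rose in orpk cells, 12 against 3 at 2 dyn/cm2 and 12 against 4 at 30 dyn/cm2, where 31.1% and 33.3% of all genes fell. In WT cells 5 fell and 5 rose at 2 dyn/cm2, and 6 fell and 5 rose at 30 dyn/cm2 (30.3% and 32.7% of all genes fell). For 30 against 2 dyn/cm2 in WT cells 6 rose and 0 fell. Fabp4, a fatty acid carrier of capillary endothelium and fat cells, fell 7.71-fold at 2 dyn/cm2 against static in orpk cells. In WT cells it had 3 reads at 2 dyn/cm2 and 16 in static culture, a ratio of 6.07 (95% counting interval 1.74 to 32.5). Angpt2 and Plvap fell 5.35-fold and 5.2-fold in orpk cells at 30 dyn/cm2, while Selp, P-selectin, rose 3.91-fold.

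**Figure D5:**
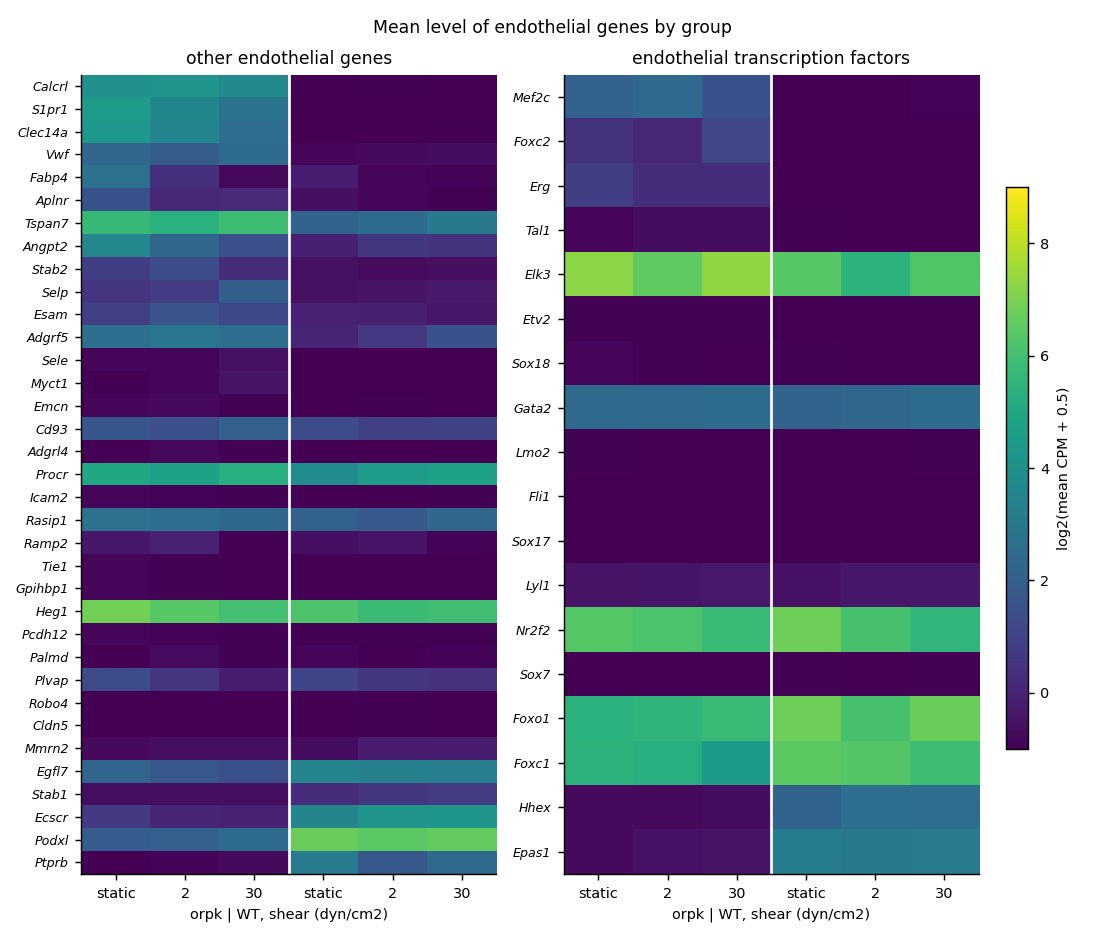
Heat map of log2(mean CPM + 0.5) of 35 other endothelial genes (left) and 18 endothelial transcription factors (right) in the 6 groups, by genotype and shear in dyn/cm2 (horizontal axis), with genes ordered from most orpk-high to most WT-high. S1pr1, Clec14a and Calcrl are at the dark end in WT cells, Ptprb and Epas1 in orpk cells, and Cldn5, Fli1 and Sox17 in all 6 groups.

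Arterial and venous genes were split between the genotypes in static culture. Of 17 such genes 11 were tested, and 6 were higher and 3 lower in orpk static cells, where 44.4% and 43.4% of all genes were. With library totals the counts were 5 and 5. Aplnr, Hey1 and Hey2 passed the filter only through the orpk libraries, and of the other 8 genes 3 were higher and 3 lower. Hey2, a Notch target of arterial cells, Hey1, Aplnr and Nrp2 were the most raised, Nrp2 by 3.46-fold. With TMM scaling, 8 of the 11 were higher and 2 lower in orpk cells at 2 dyn/cm2 (44.6% and 42.9% of all genes). At 30 dyn/cm2, 9 were higher and 1 lower (44.9% and 42%). Of 6 lymphatic genes only Pdpn, podoplanin, was tested. It averaged 150 ± 4.0 CPM in orpk static cells and 0.399 ± 0.13 CPM in WT static cells, and podoplanin is also known from fibroblasts.

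Across the 18 libraries the gene whose log2(CPM + 0.5) was most like that of Flt1 was Nrp2, with a Pearson correlation of 0.997, and 0.972 within the 9 orpk libraries and 0.994 within the 9 WT libraries. Pdp2 (0.994, with 0.961 within orpk and 0.967 within WT libraries) and Zdhhc8 (0.993, with 0.923 and 0.985) came next. Mcam was most like Simc1 (0.992, with 0.992 within orpk and 0.880 within WT libraries), and Cd34 most like Rcn1 (0.999, with 0.875 and 0.672). Kdr was most like Gbp8 (0.992), Eng like Leprot (0.991), Nos3 like Tial1 (0.980), Cdh5 like Nfe2l1 (0.974), Tek like Lrrn3 (0.971), Pecam1 like Atg4d (0.925) and Ets1 like Cdk13 (0.910). Cd34 had 1429 genes with a correlation above 0.95 and Flt1 had 285, so Nrp2 was 1 of many for Flt1. Pecam1 and Ets1 had none. These values describe libraries that fall into 2 genotypes. The likeness of Flt1 to Nrp2 was nearly as high within each genotype as over the 18 libraries, while that of Kdr to Gbp8 was 0.956 within orpk libraries and -0.125 within WT libraries, where Kdr had 1 read.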

How the data were processed

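The deposited file held raw read counts per gene, made by the authors from single-end reads of 50 nt of a stranded mRNA kit, per the labels' protocols. CASAVA 1.8.2, STAR 2.4, featureCounts 1.4.6 and GRCm38 are named in the submitters' processing notes. The strand setting of the counting is not given in the sources used here, which bears on genes that overlap on opposite strands. Groups were taken from the sample descriptions, 3 libraries in each of 6 groups. Library totals ran from 13626480 to 17387553 counts.

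The counts were fitted in edgeR 4.0.16 (R 4.3.3, limma 3.58.1) with TMM scaling, the default filter on low counts, robust quasi-likelihood F tests and Benjamini-Hochberg adjustment over 13058 genes, with all 6 groups in one fit and a threshold of 0.05. The 12 comparisons were 3 of genotype, 6 of shear and 3 of the difference between responses (orpk minus WT). SE and 95% intervals were derived from the log2 fold change and the F value of that fit. For Cd34 between the genotypes the SE was narrower than the spread over left-out libraries. Groups of 0 reads were set to a floor of 3 reads over the group, ratios on 1 to 3 reads carry exact 95% counting intervals, and both cover counting error only. Lengths and positions come from the GENCODE annotation of GRCm38, and promoter sequences from RefSeq (GRCm38.p6). Likeness used log2(CPM + 0.5) of genes averaging at least 5 CPM. The filter was also run on the 9 libraries of each genotype alone, to find genes that passed through 1 genotype only. The fit was tested on simulated data. The alternatives were DESeq2 1.42.0, RLE size factors, library totals, no filter, a fit of the compared groups alone, the replicate block, each replicate left out, the longest transcript as length, and, chosen after seeing the data, both libraries that stood apart left out.

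The 10 genes and the gene lists were chosen with earlier results of these data known. From each list, up to 4 genes with the largest called changes in a comparison could be named, and any other named gene is marked as chosen after its values were seen.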

Additional observations from a re-analysis of the deposited data

Results flagged for a closer look

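The response to shear differed between orpk and WT cells, by the interaction term of edgeR's quasi-likelihood fit, for 3 of the 7 endothelial identity genes with enough reads. Over all tested genes 52.6%, 57.5% and 46.5% were called in the tests at 2 dyn/cm2 against static, 30 dyn/cm2 against static and 30 against 2 dyn/cm2, so the share among the 7 genes is not above the background. Each value is the log2 response in orpk cells minus that in WT cells. For Mcam it was 1.23 at 2 dyn/cm2 against static, 2.10 at 30 dyn/cm2 against static and 0.88 for 30 against 2 dyn/cm2, and Mcam was higher with shear in both genotypes. For Flt1 it was 1.17, 1.74 and 0.57 in the same order. At 30 dyn/cm2 Flt1 lay above static in all 3 orpk libraries and below static in all 3 WT libraries. For Ets1 it was 0.71 at 2 dyn/cm2 and 0.57 at 30 dyn/cm2 against static, where WT libraries fell and orpk libraries overlapped with static. These responses share the static libraries of each genotype.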

How the results depend on the processing

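Across 102 results on the 10 genes, 1301 of 1391 values under other settings kept their direction and their side of the threshold, 44 no longer passed, 12 newly passed and 34 changed sign. In orpk cells at 2 dyn/cm2 against static, 5 of the genes passed, and 3 with DESeq2, 3 in a fit of the compared groups alone, where Cdh5, Nos3 and Pecam1 fell below the filter, and 3 to 4 with a library left out. Between the genotypes at 30 dyn/cm2, 9 passed, and 5 in the fit of those groups alone, where 4 (Cdh5, Kdr, Pecam1 and Tek) fell below the filter. With library totals Ets1 turned to -0.038 between genotypes at 2 dyn/cm2, to -0.27 at 30 dyn/cm2 (adjusted p = 3.71e-07, edgeR) and to -0.10 in orpk cells for 30 against 2 dyn/cm2, and Cdh5 in orpk cells at 2 dyn/cm2 to 0.059. Ets1 in orpk cells for 30 against 2 dyn/cm2 was -0.0048 with RLE size factors and with DESeq2, and the Cd34 difference between responses at 2 dyn/cm2 was 0.00038 with DESeq2. The cause was not tested.

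The other sign changes came from leaving out a library, in results that did not pass. In orpk cells the log2 ranges were -0.32 to 0.15 for Cdh5 at 2 dyn/cm2 against static, and for 30 against 2 dyn/cm2 -0.011 to 0.036 for Ets1 and -0.70 to 0.77 for Nos3. In WT cells they were -1.02 to 0.39 for Cd34 at 2 dyn/cm2, -0.073 to 1.06 for Cd34 at 30 dyn/cm2 and -0.21 to 0.025 for Eng at 30 against 2 dyn/cm2. For the difference between responses they were -0.80 to 0.62, -0.94 to 0.19 and -0.77 to 0.24 for Cd34 at 2 and 30 dyn/cm2 against static and at 30 against 2 dyn/cm2, -0.33 to 0.86 for Pecam1 and -0.21 to 0.032 for Eng at 30 dyn/cm2, and -1.20 to 0.27 for Nos3 at 30 against 2 dyn/cm2.

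Libraries with the same replicate number did not deviate together: over 45 pairs the correlation ran from -0.08 to 0.11, with 2 above 0.1. With the replicate block the counts of called genes were 0.995 to 1.001 times those without it, and 1 of the 10 genes changed a call, Eng in orpk cells at 2 dyn/cm2 (0.29, adjusted p = 0.0513).

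Depth limits Pecam1, Cdh5, Kdr, Tek and Nos3 in particular, with 61 reads or fewer per group for Pecam1 and 45 or fewer for Cdh5. Genotype cannot be told apart from isolate.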
